A study of Mus musculus with 38 samples.

Results

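Foxa2 was removed on its own in organoids of 2 mouse lung adenocarcinomas, lines 1267B and 1526C. The comparison held the 8 libraries, out of 38 in the series, whose recorded genotype has a floxed Foxa2 and no floxed Foxa1. Of these, 4 came from cultures given ethanol vehicle and 4 from cultures given 4-hydroxytamoxifen (4-OHT). Organoids are clusters of tumour cells grown here in Matrigel, a basement membrane gel, with L-WRN conditioned medium, and each line was started from a single tumour of mice on a mixed 129/B6 background. Every library, controls included, carried, among its alleles, p53frt (a p53 allele that Flp recombinase deletes), Rosa-FSF-CreERT2 (a Cre recombinase that becomes active on binding 4-OHT, expressed from the Rosa locus) and Foxa2flox. The dose was 2 uM for 72 hours. A time of 21 days after treatment is recorded for crosslinked cells, and none of the sources used here gives the time at which RNA was taken. No line without a floxed Foxa gene was included, so effects of 4-OHT or of Cre activity cannot be told apart from those of losing Foxa2. Organoids of 3 further tumours with Foxa1flox in place of Foxa2flox and the same other alleles (12 libraries, 6 vehicle and 6 4-OHT) served for comparison.

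Foxa2 belongs to the forkhead family of transcription factors. It binds DNA through a winged helix domain, can open compact chromatin, and acts together with its close relative Foxa1 in the formation of lung, liver, pancreas and gut. In the adult lung it is found in airway and alveolar epithelium, where it takes part in surfactant production and in holding back mucous cell differentiation. Lung adenocarcinomas that retain the lung factor Nkx2-1 usually also express Foxa1 and Foxa2.

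Line 1267B gave vehicle and 4-OHT replicate 1 in run 17699 and replicate 2 in run 17992, where run is the number that opens the library name. Line 1526C gave replicates 3 and 4, all in run 19659. Line and run 19659 therefore cannot be told apart, and the repeat libraries of a line are not separate tumours. The Foxa1-floxed libraries were also all in run 19659, so a comparison with them does not match the runs of line 1267B. Total counts were 18.5 M to 30.9 M per library (M, 1e6 counts), 20783 to 22693 genes had counts, and mitochondrial transcripts took 1.89% to 2.52% of the counts. The first principal component held 70.5% of the variance and separated the lines. In both lines vehicle libraries contained Nkx2-1 and the surfactant transcripts Sftpc and Sftpb of alveolar type 2 cells. The T cell marker Cd8a, the macrophage marker Adgre1 and the fibroblast collagen Col1a2 were at 0 counts in all 8 libraries. They were picked from longer lists, in which 4 of 24 leukocyte and 3 of 13 fibroblast markers were at 0 throughout. Other markers of such cells had counts, and their levels are given below. Values below are CPM, a gene's counts per M counts of the library after TMM scaling, listed in the order of replicates 1 to 4, and a gene is said to have risen or fallen, or to be called, at a Benjamini-Hochberg adjusted p under 0.05 in edgeR's quasi-likelihood test blocked by line and run.

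Foxa2 (ENSMUSG00000037025, GRCm38 chromosome 2, 148042877 to 148046969) stood at 73.5, 82.5, 122 and 112 CPM with vehicle and at 3.07, 4.15, 1.93 and 2.15 CPM with 4-OHT. It fell in every 4-OHT library, from 97.5 ± 23.1 to 2.83 ± 1.01 CPM (mean ± SD, n = 4 and 4; log2 change -5.12, SE 0.25, adjusted p = 8.18e-09). The residual level was lower in line 1526C than in line 1267B, and the fall of -4.44 on the log2 scale in line 1267B differed from -5.84 in line 1526C (adjusted p = 0.0385 for the difference). These are counts over the whole gene, so excision of the floxed sequence itself was not measured.

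Foxa1 (ENSMUSG00000035451, GRCm38 chromosome 12, 57540628 to 57546916), the closest relative of Foxa2, was not called. Its levels were 115, 115, 99.2 and 65.7 CPM with vehicle and 149, 140.2, 135 and 141 CPM with 4-OHT, so the highest vehicle library lay below the lowest 4-OHT library (log2 change 0.54, SE 0.15, adjusted p = 0.0548). It passed with DESeq2 on the same design (adjusted p = 0.0188) and in edgeR without a filter on low counts (adjusted p = 0.00663). In edgeR it did not pass on the 8 libraries alone (adjusted p = 0.113) or with counts summed per line (adjusted p = 0.385). With any 1 library left out its edgeR adjusted p was 0.0692 to 0.204. Foxa3, the third relative, stood at 10.6, 9.35, 17.97 and 24.8 CPM and 6.70, 3.77, 12.03 and 13.7 CPM, lower with 4-OHT within each line but overlapping between lines (log2 change -0.86, SE 0.28, adjusted p = 0.101). It too passed with DESeq2 (adjusted p = 0.0299), without the filter (adjusted p = 0.00412) and in edgeR on the 8 libraries alone (adjusted p = 0.0497). Foxa3 did not pass in edgeR with counts summed per line (adjusted p = 0.381) or with any 1 library left out (adjusted p from 0.113 to 0.281). Nkx2-1, the lung lineage factor, was at 232, 244, 306 and 260.3 CPM and 211, 267, 195 and 206 CPM (log2 change -0.25, SE 0.19, adjusted p = 0.606). Its groups overlapped.

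**Figure D1:**
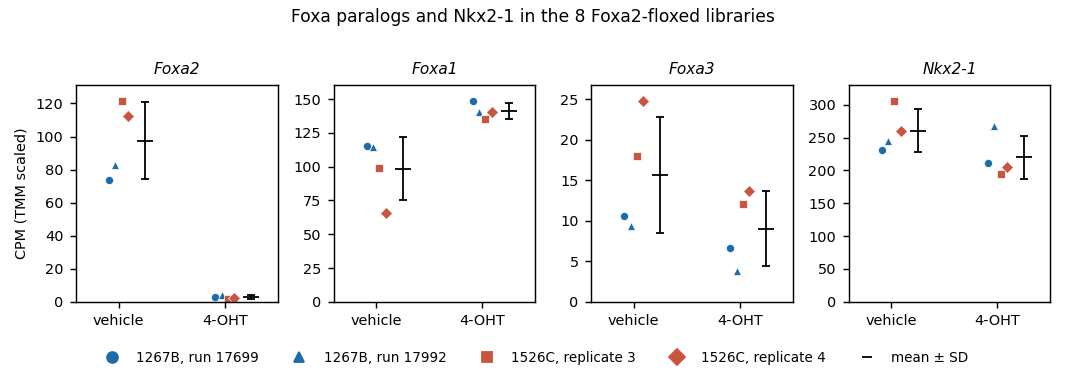
Level of Foxa2, Foxa1, Foxa3 and Nkx2-1 in each of the 8 Foxa2-floxed libraries, in TMM-scaled CPM on a linear axis from 0; blue marks are line 1267B, red marks line 1526C, and black bars are the mean ± SD of 4 libraries. Foxa2 drops to between 1.93 and 4.15 CPM, Foxa1 groups do not overlap although the gene was not called, and the groups of Foxa3 and Nkx2-1 overlap.

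After 4-OHT 835 of 16417 genes passed the test (5.09%). Of these, 489 rose (2.98%) and 346 fell (2.11%). The median fitted change was 1.71 (log2) for the higher genes and -1.30 for the lower genes. Among all genes tested, 442 (2.69%) had 4-OHT libraries entirely above or entirely below the vehicle libraries, and this held for 129 of the genes called higher and 100 of those called lower. Within each line the groups were apart in the same direction for 280 of the genes called higher and 237 of those called lower, against 10.4% of all genes. The medians over the called genes were 1.28 and 2.09 for higher genes in lines 1267B and 1526C, and -0.84 and -1.48 for lower genes. More of these genes were also called within line 1526C (337 higher and 234 lower) than within line 1267B (43 and 46). Line 1526C thus weighed more in the choice of these genes, so the medians cannot test whether effects differed between lines. Tested within each line, 118 genes were called in line 1267B (0.719%) and 1118 in line 1526C (6.81%), 664 higher (4.04%) and 454 lower (2.77%). The count leaned on line 1526C, since without vehicle replicate 3 or 4 it was 441 or 431 and without 4-OHT replicate 3 or 4 it was 452 or 399. Summing the counts per line, which makes the tumour the unit, left 73 calls.

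The 37 gene lists used below cover cell identities, signalling pathways, secreted protein families and the other cell types a culture could hold. Over all 16417 genes the median change was -0.0083 (log2).

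**Figure D2:**
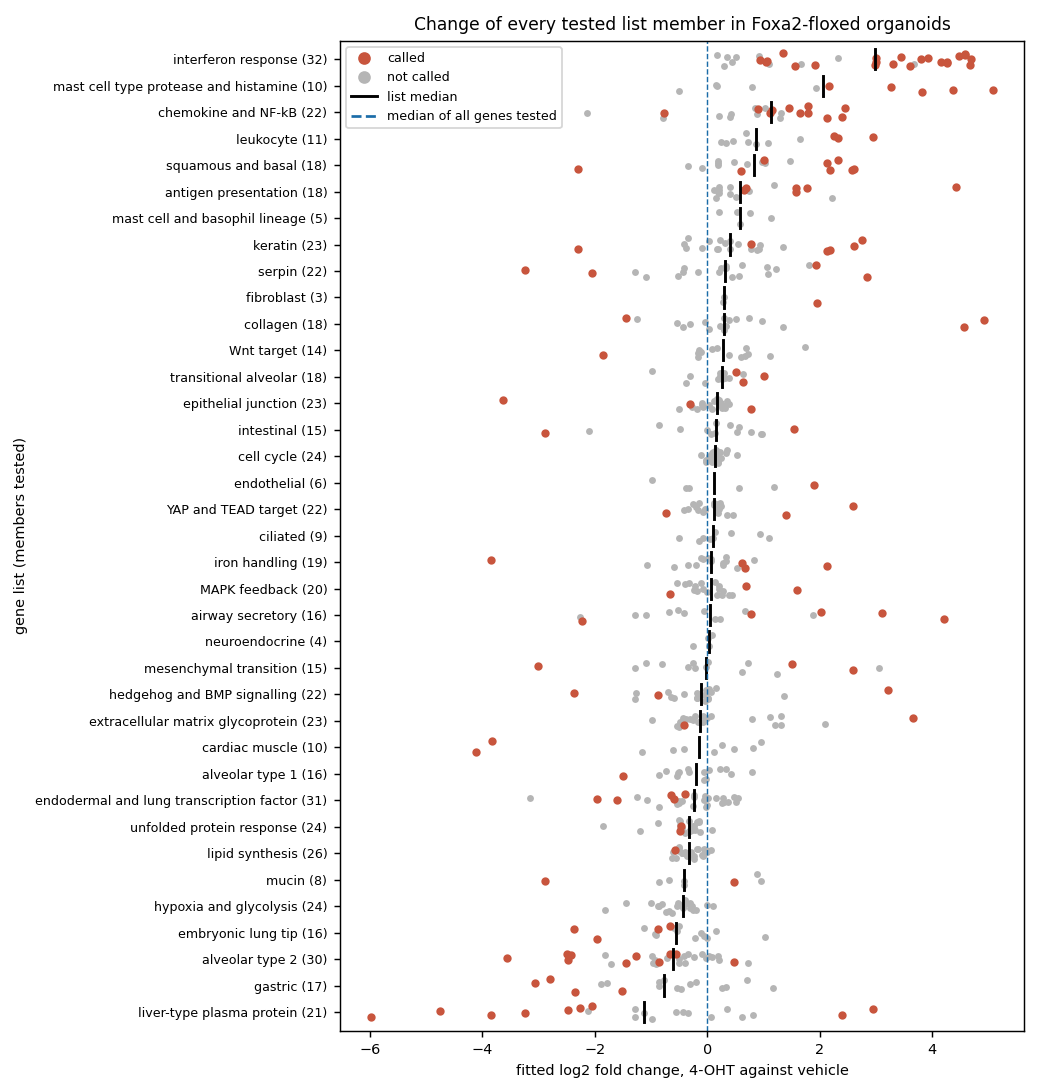
Fitted log2 change with 4-OHT of every tested member of the 37 gene lists, with called members in red, other members in grey, list medians as black ticks and the median of all genes tested as a dashed line; numbers in brackets are members tested. The interferon response list has the highest median (2.99) and the liver-type plasma protein list the lowest (-1.13).

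Alveolar type 2 genes, which make and recycle surfactant, had lower fitted values with 4-OHT for 24 of the 30 tested. Among them 9 fell and 1 rose, against 5.09% called over all genes, and the list median was -0.61. The surfactant protein gene Sftpc (ENSMUSG00000022097, GRCm38 chromosome 14, 70520949 to 70524081) stood at 1722, 567, 5695 and 2999 CPM with vehicle and 383, 75.0, 832 and 929.7 CPM with 4-OHT. It fell from 2746 ± 2203 to 555 ± 399 CPM (log2 change -2.42, SE 0.48, adjusted p = 0.00806). Within each line both 4-OHT libraries were below both vehicle libraries, and the groups overlapped only because 4-OHT replicates 3 and 4 of line 1526C exceeded vehicle replicate 2 of line 1267B.

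Lpcat1, the acyltransferase that forms the disaturated lipid of surfactant, stood at 109, 176.5, 448 and 411 CPM and 42.6, 85.3, 176 and 166 CPM (log2 change -1.26, SE 0.19, adjusted p = 0.00133), a fall of similar size in both lines (log2 change -1.20 in line 1267B and -1.33 in line 1526C). Lgi3, a secreted protein found in alveolar type 2 cells, went from 34.2, 14.8, 106 and 70.8 to 11.8, 4.33, 38.6 and 35.6 CPM (log2 change -1.44, SE 0.28, adjusted p = 0.00784). Ppp1r14c, an inhibitor of protein phosphatase 1, went from 1.91, 1.39, 8.86 and 12.6 to 0.307, 0.218, 0.579 and 0.621 CPM (log2 change -3.55, SE 0.40, adjusted p = 3.82e-04). Its 4-OHT libraries were all below its vehicle libraries. The lung chemokine Cxcl15 showed the opposite order of the lines, at 507, 456, 45.8 and 111 CPM with vehicle and 75.1, 39.7, 18.4 and 25.1 CPM with 4-OHT (log2 change -2.49, SE 0.53, adjusted p = 0.0116). Etv5, a factor that maintains alveolar type 2 cells, fell from 114 ± 24.7 to 71.4 ± 13.1 CPM (adjusted p = 0.0124), as did the cathepsin Ctsh (1223 ± 190.3 to 823 ± 56.7 CPM, adjusted p = 0.0255). The remaining calls were Dram1 and Hc. Muc1, a membrane mucin of the apical surface, rose from 464 ± 277 to 648.5 ± 360.2 CPM (adjusted p = 0.0165). Several core surfactant genes did not pass. Sftpb stood at 3519, 5964, 6443 and 8949 CPM and 2074, 5179, 2749 and 2905 CPM (adjusted p = 0.174). Sftpa1, Sftpd and Abca3 had log2 changes of -0.99, 0.083 and -0.23 (adjusted p = 0.226, 0.918 and 0.54). Slc34a2, a phosphate carrier, did not pass either, at 569, 933, 651 and 893 and 178, 258, 228 and 262 CPM (adjusted p = 0.0865). Without 4-OHT replicate 4, 5 list members were called lower in place of 9.

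Alveolar type 1 genes, of the thin gas-exchange cell, had 1 call among 16 tested (median -0.19), against 5.09% called over all genes. This was the tight junction gene Cldn18, at 0.775, 29.2, 349.8 and 284 CPM with vehicle and 0.0511, 14.9, 96.5 and 107 CPM with 4-OHT (log2 change -1.50, SE 0.33, adjusted p = 0.0143), nearly silent in replicate 1, and the call was lost without vehicle replicate 3, 4-OHT replicate 3 or 4-OHT replicate 4. Of 18 transitional alveolar genes, which mark cells between the alveolar types, 3 rose (median 0.27). They were Anxa1, a membrane-binding annexin (657 ± 227 to 984 ± 195 CPM, adjusted p = 0.00634), the epithelial 14-3-3 gene Sfn and the galectin Lgals3, and 1 was called when any 1 of the replicate 3 or 4 libraries was left out. Among 16 airway secretory genes, 4 rose and 1 fell (median 0.05). Ltf, the iron-binding antimicrobial lactoferrin, stood at 2.22, 131, 0.041 and 0.251 CPM and 32.1, 295, 3.12 and 6.36 CPM (log2 change 3.11, SE 0.56, adjusted p = 0.00446), highest in replicate 2 under both treatments. Krt7, a keratin of simple epithelia, rose from 1485, 1764, 1226 and 1375 to 1873, 2660, 2713 and 2868 CPM (log2 change 0.78, SE 0.17, adjusted p = 0.012). Gabrp and Kcnj16 also rose (2 airway genes were called higher without vehicle replicate 3 or vehicle replicate 4), and Bpifb1, a secreted airway defence protein, fell from 13.2 ± 21.4 to 2.74 ± 3.86 CPM (adjusted p = 0.0308), a call lost when any 1 library other than the replicate 2 pair was left out. None of 9 ciliated genes (median 0.10; 1 with an unadjusted p under 0.05) and none of 4 neuroendocrine genes (median 0.03; 0 with an unadjusted p under 0.05) was called by edgeR or DESeq2.

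Genes of proteins that the liver secretes into plasma had the lowest list median (-1.13). Of 21 tested, 7 were called lower and 2 higher, against 2.11% and 2.98% of all genes. Trf (ENSMUSG00000032554, GRCm38 chromosome 9, 103204001 to 103230444), which encodes the iron carrier transferrin, stood at 2368, 1610, 207 and 528 CPM with vehicle and 311.5, 126, 18.2 and 16.8 CPM with 4-OHT. It was higher in line 1267B than in line 1526C under both treatments, and fell by 3.30 and 4.39 on the log2 scale in the 2 lines (adjusted p = 0.0011). Itih2, which attaches to hyaluronan, went from 4.86, 7.71, 22.9 and 20.5 to 0.205, 0.0935, 1.06 and 0.876 CPM (log2 change -4.75, SE 0.34, adjusted p = 1.70e-06), with no overlap of the groups. Rbp4, the retinol carrier, went from 19.5, 20.6, 84.1 and 109.5 to 3.17, 1.68, 40.5 and 42.7 CPM (log2 change -2.05, SE 0.38, adjusted p = 0.00519).

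Albumin transcripts (Alb) were measured almost only in line 1526C, at 112 and 50.6 CPM with vehicle and 1.96 and 0.402 CPM with 4-OHT (adjusted p = 3.38e-04), while line 1267B had 0 counts in 3 of its 4 libraries and 0.0511 CPM in the fourth. Ttr, the thyroid hormone carrier, Serpind1, a thrombin inhibitor, and the complement gene Hc completed the decreases. In the other direction Apob, the backbone of lipoprotein particles, went from 8.63, 32.2, 5.29 and 4.45 to 10.8, 193, 91.9 and 98.9 CPM (log2 change 2.96, SE 0.59, adjusted p = 0.00806). Complement C3 went from 28.4, 20.9, 1.44 and 1.29 to 38.1, 74.1, 19.6 and 19.6 CPM (log2 change 2.39, SE 0.59, adjusted p = 0.0263). Both rises were larger in line 1526C than in line 1267B (log2 change 1.51 in line 1267B and 4.29 in line 1526C for Apob, log2 change 1.12 in line 1267B and 3.85 in line 1526C for C3), a difference that was not called (adjusted p = 0.198 and 0.285). The count higher in this list was 0 without vehicle replicate 3 or vehicle replicate 4, and 1 without either replicate 2 library, 4-OHT replicate 3 or 4-OHT replicate 4.

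Of 17 gastric genes, 4 fell and none rose (median -0.77), against 2.11% called lower over all genes. Tff1, a trefoil peptide of gastric mucus, stood at 119, 61.1, 954 and 1416 CPM with vehicle and 13.6, 7.58, 193 and 219 CPM with 4-OHT (log2 change -2.79, SE 0.34, adjusted p = 3.16e-04). Line 1526C held more of it, and the relative fall was similar in both lines (log2 change -3.07 in line 1267B and -2.52 in line 1526C). Agr2, an endoplasmic reticulum enzyme of mucous cells, had the reverse distribution, at 325, 1211, 2.42 and 8.21 CPM and 107, 127, 0.129 and 0.219 CPM (log2 change -3.07, SE 0.65, adjusted p = 0.0122). The pepsinogen gene Pgc and the stomach calpain Capn8 also fell (adjusted p = 0.0156 and 0.016). The gastrokine Gkn2 was found in line 1526C, at 325 and 375 CPM with vehicle and 149.5 and 176 CPM with 4-OHT, and did not pass (adjusted p = 0.563). Without vehicle replicate 2 or 4-OHT replicate 2, 2 gastric genes were called lower in place of 4. Of 15 intestinal genes, the goblet cell mucin Muc2 fell (9.25, 87.8, 0.328 and 5.38 to 1.69, 13.8, 0.418 and 0.11 CPM, log2 change -2.88, SE 0.74, adjusted p = 0.0328) and the glucose transporter Slc5a1 rose, from 0.304 ± 0.103 to 0.944 ± 0.537 CPM (adjusted p = 0.0262; list median 0.15). Among 8 mucin genes the calls were Muc2 and Muc1 (median -0.42). The Muc2 call was lost when any 1 library other than vehicle replicate 3 was left out, that of Muc1 without 4-OHT replicate 3 or vehicle replicate 4, and that of Slc5a1 when any 1 library other than the replicate 1 pair was left out.

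**Figure D3:**
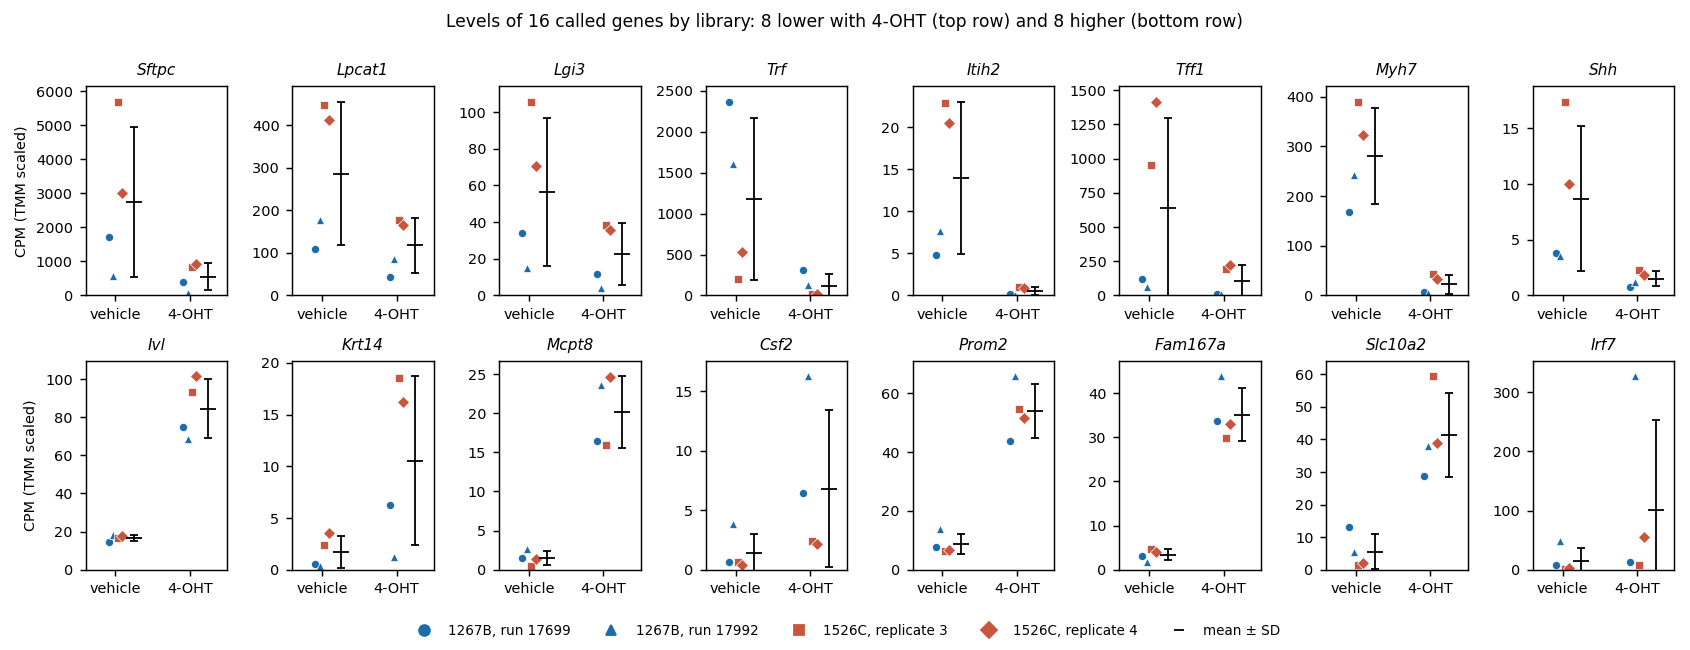
Level of 16 called genes in each of the 8 Foxa2-floxed libraries, in TMM-scaled CPM on linear axes from 0, with blue marks for line 1267B, red marks for line 1526C and black bars for the mean ± SD of 4 libraries (bars that would reach below 0 are clipped). In the top row the 4-OHT libraries sit below the vehicle libraries of the same line, as for Myh7; in the bottom row Ivl, Mcpt8, Prom2 and Fam167a are higher in all 4 4-OHT libraries, while Irf7 is led by 4-OHT replicate 2.

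Among 31 endodermal and lung transcription factor genes, 5 fell and none rose (median -0.23). Of these, 3 are forkhead genes of the Foxp branch, which act in lung development. Foxp2 stood at 1.602, 1.01, 63.3 and 39.4 CPM and 0.205, 0.592, 13.7 and 10.04 CPM (log2 change -1.96, SE 0.35, adjusted p = 0.00449), Foxp1 at 81.2, 73.5, 83.0 and 72.0 CPM and 60.1, 47.5, 49.8 and 42.1 CPM (log2 change -0.64, SE 0.12, adjusted p = 0.00519), and Foxp4 fell from 203 ± 57.4 to 157 ± 53.8 CPM (adjusted p = 0.0234). For Foxp1 every 4-OHT library was below every vehicle library, while Foxp2 was expressed mainly in line 1526C. Creb3l1, a factor that raises secretory capacity, also separated the groups, at 66.1, 101.5, 117 and 115 CPM and 28.8, 33.4, 29.6 and 37.4 CPM (log2 change -1.60, SE 0.28, adjusted p = 0.00329). Tfcp2l1, a grainyhead relative, fell from 270.2 ± 118.5 to 183 ± 92.2 CPM (adjusted p = 0.0115). Hnf4a, a liver and gut nuclear receptor, and Sox9 did not pass (adjusted p = 0.144 and 0.412), and Sox2 was at 0 in all 8 libraries.

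The embryonic lung tip list, of genes that mark the growing ends of the branching lung, had 4 of 16 lower and none higher (median -0.56). Shh (ENSMUSG00000002633, GRCm38 chromosome 5, 28456815 to 28467256), the hedgehog ligand of lung epithelium, stood at 3.77, 3.58, 17.4 and 9.96 CPM with vehicle and 0.716, 1.25, 2.25 and 1.86 CPM with 4-OHT (log2 change -2.36, SE 0.27, adjusted p = 1.79e-04), with no overlap of the groups. Bmp4, a ligand made at lung tips, went from 171, 169, 313 and 418 to 138, 97.3, 148 and 169.9 CPM (log2 change -0.88, SE 0.21, adjusted p = 0.0239). Foxp2 and Etv5 were the other calls. Without 4-OHT replicate 4, 2 were called in place of 4. Of 22 hedgehog and BMP genes, Shh and Bmp4 fell and Grem1, a secreted BMP antagonist, rose from 0.225 ± 0.225 to 1.99 ± 1.78 CPM (adjusted p = 0.00508; list median -0.12). The count lower was 1 without either replicate 2 library, 4-OHT replicate 3 or either replicate 4 library.

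Of 20 MAPK feedback genes, Etv5 fell, while Etv1 and the cyclin gene Ccnd1 rose, Ccnd1 from 356, 540.4, 437 and 529.6 to 475, 692, 913 and 987 CPM (log2 change 0.68, SE 0.13, adjusted p = 0.00609; list median 0.07). Of these, 1 was called higher without vehicle replicate 3, 4-OHT replicate 3 or vehicle replicate 4, and 0 lower without 4-OHT replicate 4. Of 14 Wnt targets, Sp5 fell from 3.73 ± 3.17 to 0.947 ± 0.529 CPM (adjusted p = 0.0239; median 0.28), a call lost without either replicate 2 library, either replicate 3 library or 4-OHT replicate 4. Of 22 YAP and TEAD targets, the receptor Axl and Ankrd1 rose and the ectonucleotidase Nt5e fell (median 0.11). The count higher was 0 without vehicle replicate 3 or 4-OHT replicate 4 and 1 without vehicle replicate 4, and the count lower was 0 without 4-OHT replicate 3, vehicle replicate 4 or 4-OHT replicate 4. Axl stood at 0.0517, 0.927, 0.821 and 1.83 CPM and 0.307, 5.86, 5.31 and 10.6 CPM (log2 change 2.59, SE 0.56, adjusted p = 0.0128). None of 24 cell cycle genes was called, here or by DESeq2, and 1 had an unadjusted p under 0.05 (median 0.13). Without the filter on low counts edgeR called 1 of them higher. Over all genes tested, 5.09% were called.

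Squamous and basal genes, of stratified epithelium, were higher: 7 of 18 tested rose and 1 fell, against 2.98% and 2.11% of all genes. The list median was 0.83, with 0.51 in line 1267B and 1.16 in line 1526C. Ivl (ENSMUSG00000049128, GRCm38 chromosome 3, 92570902 to 92573735), a precursor of the cornified envelope, stood at 14.8, 18.4, 16.4 and 17.5 CPM with vehicle and 74.6, 68.4, 93.3 and 102 CPM with 4-OHT (log2 change 2.32, SE 0.29, adjusted p = 3.82e-04), and every 4-OHT library was above every vehicle library. Krt14, a basal keratin, went from 0.569, 0.337, 2.38 and 3.58 to 6.24, 1.22, 18.5 and 16.2 CPM (log2 change 2.61, SE 0.41, adjusted p = 0.0019). Its groups overlapped across lines but not within them. Krt16 and Krt5 rose at low levels, from 0.381 ± 0.235 to 1.84 ± 1.25 CPM and from 0.206 ± 0.272 to 0.839 ± 0.808 CPM (adjusted p = 0.00278 and 0.0399). The desmosomal protein gene Perp rose from 121.5 ± 21.0 to 191 ± 59.7 CPM (adjusted p = 0.00295), and Sfn and the envelope gene Lor also rose. Krt4, a keratin of moist stratified linings such as the oesophagus, fell from 58.0, 46.8, 6.89 and 6.63 to 15.5, 14.03, 0.643 and 0.986 CPM (log2 change -2.30, SE 0.44, adjusted p = 0.00609). Without 4-OHT replicate 3, vehicle replicate 4 or 4-OHT replicate 4, 4 members were called higher in place of 7. In the whole keratin family 5 of 23 tested rose (3 without vehicle replicate 4) and 1 fell (median 0.41), with Krt84, a hard keratin, at 1.24, 7.75, 0.123 and 0.143 CPM and 13.2, 17.8, 2.22 and 1.46 CPM (log2 change 2.75, SE 0.44, adjusted p = 0.00214).

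Each adhesion and matrix list below had calls in both directions, where 2.98% of all genes rose and 2.11% fell. Of 23 epithelial junction genes, Krt7 rose and the splicing regulator Esrp1 and the fetal claudin Cldn6 fell (median 0.18). Esrp1 moved little, from 207, 195, 236 and 238 to 174, 163, 189 and 179 CPM, with no overlap (log2 change -0.31, SE 0.076, adjusted p = 0.0263). The Krt7 call was lost without vehicle replicate 3 or vehicle replicate 4, 2 junction genes were called higher without either replicate 1 library, and 1 was called lower when any 1 library other than the replicate 2 pair was left out. Of 15 mesenchymal transition genes, Axl and S100a4 rose and the membrane protease Mmp14 fell, from 0.155, 0.253, 8.74 and 6.56 to 0, 0, 0.965 and 1.02 CPM (log2 change -3.01, SE 0.27, adjusted p = 1.61e-05; list median -0.02). The count higher was 0 without vehicle replicate 3 or 4-OHT replicate 4 and 1 without either replicate 1 library, 4-OHT replicate 3 or vehicle replicate 4, and the count lower was 2 without either replicate 2 library. Of 23 extracellular matrix glycoprotein genes, Fbln2 rose from 2.69, 4.04, 0.246 and 0.896 to 13.4, 32.9, 19.6 and 17.1 CPM (log2 change 3.66, SE 0.61, adjusted p = 0.00259) and the laminin chain Lamc1 fell, from 499.5 ± 81.1 to 374 ± 34.0 CPM (adjusted p = 0.0423; median -0.12). The Lamc1 call was lost when any 1 library other than the replicate 2 pair was left out. Of 18 collagen genes, Col8a1 and Col6a1 rose from near 0 and Col11a2 fell from 18.1 ± 17.2 to 6.79 ± 6.39 CPM (adjusted p = 0.00508; median 0.30). Col8a1 stood at 0.0517, 0.0843, 0.041 and 0.107 CPM and 1.02, 1.71, 2.54 and 3.98 CPM (log2 change 4.91, SE 0.78, adjusted p = 0.00193). Of 22 serpin genes, the granzyme inhibitor relative Serpinb9b and Serpinb2 rose and Serpind1 and Serpinb6c fell (median 0.32). Serpinb9b went from 2.89, 7.88, 1.80 and 1.94 to 5.37, 24.0, 40.3 and 41.1 CPM (log2 change 2.84, SE 0.53, adjusted p = 0.00539). Among serpins 1 was called higher when any 1 of the replicate 3 or 4 libraries was left out, and 1 lower when any 1 library other than the replicate 2 pair was left out.

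Genes of proteases best known from mast cell granules were higher with 4-OHT. Of 10 tested genes for such proteases and histamine synthesis, 5 rose and none fell (median 2.06), against 2.98% called higher over all genes. Mcpt8 stood at 1.499, 2.61, 0.492 and 1.43 CPM with vehicle and 16.4, 23.6, 15.9 and 24.6 CPM with 4-OHT (log2 change 3.82, SE 0.49, adjusted p = 4.08e-04). Mcpt1 went from 1.34, 1.94, 0.944 and 1.47 to 11.8, 12.2, 71.1 and 62.3 CPM (log2 change 4.37, SE 0.63, adjusted p = 8.60e-04), and Mcpt2 from 23.7, 11.5, 28.6 and 67.0 to 102, 36.7, 255 and 263 CPM (log2 change 2.17, SE 0.36, adjusted p = 0.00259). In Mcpt8 and Mcpt1 the groups were apart, and the 4-OHT level of Mcpt1 was highest in line 1526C. The tryptase Tpsab1 rose from 0.258, 0.169, 1.72 and 7.31 to 0.921, 4.05, 43.9 and 40.5 CPM (log2 change 3.26, SE 0.64, adjusted p = 0.00769), and Mcpt4 had 2 counts over the vehicle libraries and 98 over the 4-OHT libraries. The Mcpt genes are close copies, and how multiply mapped reads were handled is unknown here, so it is uncertain which copy the reads came from.

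Markers of the mast cell and basophil lineage were mostly at or near 0. Of 12, the receptor chains Ms4a2 and Fcer1a, the factor Gata1 and the receptor Mrgprb1 were at 0 counts in all 8 libraries, and 8 were at no more than 1 CPM in any library. The protease Cpa3 was also at 0 throughout. The summed level of the 12 markers was 7.35 to 24.2 CPM with vehicle and 20.3 to 31.6 CPM with 4-OHT, and Gata2, Hpgds and Mrgprb2 had the highest means. None of the 5 tested was called, here or by DESeq2, and 0 had an unadjusted p under 0.05 (median 0.58). Without the filter on low counts edgeR called 1 of the 12 markers higher. The part of such cells in the protease counts was not tested.

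Of 24 leukocyte markers, 17 were at no more than 1 CPM in all libraries, and 3 of 11 tested rose (median 0.87). Their summed level was 60.1 to 193 CPM with vehicle and 152 to 294 CPM with 4-OHT. Csf1r, the receptor of macrophage growth factor Csf1, stood at 0.258, 0.379, 1.31 and 1.86 CPM and 1.58, 3.52, 5.63 and 6.57 CPM (log2 change 2.33, SE 0.41, adjusted p = 0.00357), and the integrin Itgam at 0.0517, 0.211, 0.082 and 0.0717 and 0.46, 0.81, 0.354 and 0.402 CPM (log2 change 2.25, SE 0.53, adjusted p = 0.0212). Ly6g, a surface protein of neutrophils with many close copies, went from 6.97 ± 8.80 to 38.1 ± 26.2 CPM (log2 change 2.95, SE 0.43, adjusted p = 0.00101), with no overlap of the groups. The pan-leukocyte gene Ptprc stood at 0.672, 0.0843, 0.656 and 0.43 and 0.767, 0.53, 1.13 and 1.17 CPM and was not called (adjusted p = 0.0867), and Tyrobp, Adgre1, Cd3g and Cd8a were at 0. In bulk RNA, a change in the number of cells of one kind and a change in RNA per cell cannot be told apart. Of 3 fibroblast markers tested, Acta2 rose, in line 1526C (0, 0, 3.53 and 2.33 to 0.0511, 0, 8.27 and 14.1 CPM, adjusted p = 0.0441; median 0.31), a call lost when any 1 of the 8 libraries was left out. Of 6 endothelial markers tested, the VEGF receptor Flt1 rose from 17.1, 58.6, 2.91 and 5.88 to 33.1, 118, 32.3 and 32.9 CPM (log2 change 1.90, SE 0.40, adjusted p = 0.0116; median 0.12), a call lost without vehicle replicate 4, while Cldn5 and Emcn were at 0.

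The cardiac myosin heavy chain genes Myh7 and Myh6 encode the motor proteins of heart muscle, and both fell. Myh7 (ENSMUSG00000053093, GRCm38 chromosome 14, 54970684 to 54994626) stood at 168, 243, 390.1 and 324 CPM with vehicle and 7.16, 4.77, 43.7 and 33.7 CPM with 4-OHT (log2 change -4.10, SE 0.36, adjusted p = 1.61e-05). Myh6 went from 16.02, 22.9, 46.3 and 37.7 to 0.665, 0.592, 5.53 and 4.42 CPM (log2 change -3.83, SE 0.32, adjusted p = 1.38e-05). Both fell in each line with no overlap of the groups, and both remained above 0 in every 4-OHT library. The pair share much of their sequence, so reads may have been credited to either. No other cardiac muscle gene among 10 tested was called, 11 of 18 were at no more than 1 CPM, and Actc1, Myl2 and Tbx5 were at 0 (list median -0.15).

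Interferon response genes, which cells switch on after sensing viral nucleic acid or interferon, had the highest list median (2.99). Of 32 tested, 22 were called higher and none lower, against 2.98% called higher over all genes. Ifit1, which binds foreign RNA, stood at 0.362, 39.9, 0 and 0.0717 CPM with vehicle and 2.35, 332, 1.77 and 29.3 CPM with 4-OHT (log2 change 4.58, SE 1.16, adjusted p = 0.0301). Irf7, a factor that amplifies interferon production, stood at 7.65, 47.8, 1.15 and 2.22 CPM and 13.2, 327.5, 7.85 and 55.6 CPM (log2 change 2.98, SE 0.71, adjusted p = 0.0226). In both genes 4-OHT replicate 2 was the highest library, 4-OHT replicate 4 exceeded replicates 1 and 3, and vehicle replicate 2 exceeded 4-OHT replicates 1 and 3.

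The ubiquitin-like modifier Isg15 (0.413, 10.2, 0.41 and 0.538 to 0.869, 130.5, 1.70 and 26.7 CPM), the antiviral enzymes Oas3 (0.982, 21.1, 0.123 and 0.466 to 3.38, 294.5, 2.83 and 30.0 CPM) and Rsad2 (0, 5.18, 0 and 0 to 0.767, 82.3, 0.0965 and 2.12 CPM), and Ifit3 (0.207, 18.5, 0.287 and 0.179 to 0.563, 384, 1.45 and 10.5 CPM) also had 4-OHT replicate 2 as the highest library (adjusted p = 0.0206, 0.0142, 0.00956 and 0.00834). The RNA sensor Ifih1 was called at a smaller change, from 19.1, 51.6, 21.1 and 20.6 to 28.6, 138, 36.2 and 53.3 CPM (log2 change 1.06, SE 0.21, adjusted p = 0.00815). In each of the 22 called genes every 4-OHT library was above the vehicle library of the same number and 4-OHT replicate 2 was the highest, and 29 of 32 members had higher fitted values in both lines, but no member had groups that were apart. Within line 1526C the numbers do not pair libraries, since replicates 3 and 4 came from 1 run. The number called fell from 22 to 4 without 4-OHT replicate 2, to 7 without vehicle replicate 2, to 6 without vehicle replicate 3 or 4, to 8 without 4-OHT replicate 4, and to 2 with a block of line alone. Without both replicate 2 libraries it was 4, without line 1526C it was 0 and without line 1267B it was 14. The list median was 1.76 in line 1267B, 4.10 in line 1526C and 1.16 in the Foxa1-floxed organoids.

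**Figure D4:**
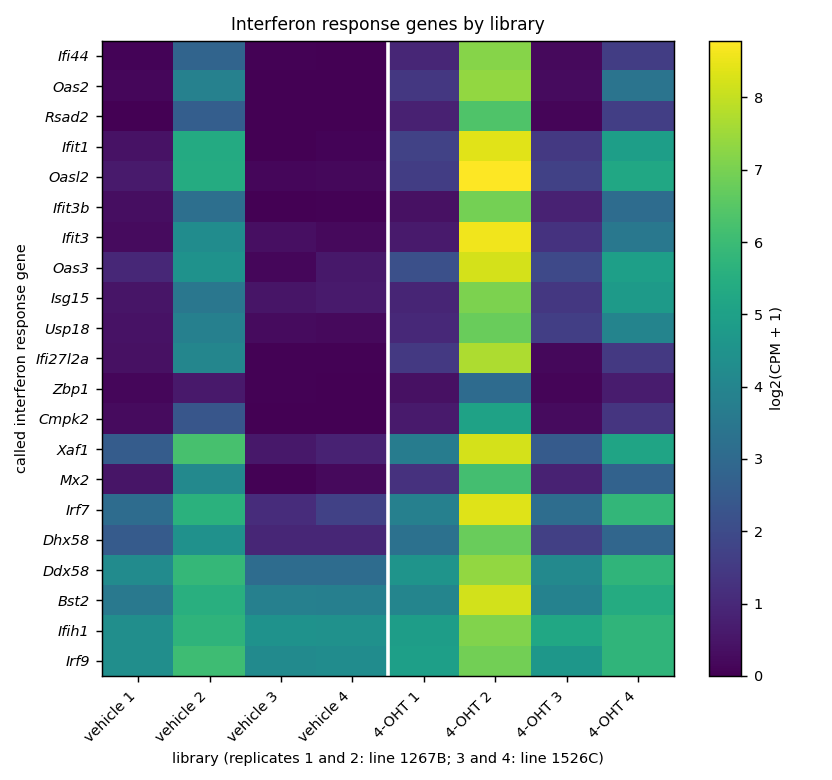
Level of 21 of the 22 called interferon response genes (rows) in the 8 Foxa2-floxed libraries (columns), as log2(CPM + 1) on a colour scale from 0. The column of 4-OHT replicate 2 is brightest, at 332 CPM for Ifit1, followed by 4-OHT replicate 4 and vehicle replicate 2.

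Promoter sequence was read for these genes because they moved together. The letters GAAA, any 2 bases and GAAA again (or the reverse complement TTTC, any 2 bases and TTTC; matches may overlap), the core of the element through which interferon acts on these genes, lay within 250 bases before the start of 7 of the 15 called interferon genes with a RefSeq window (46.7%), against 11 of 22 in the whole interferon list, called or not (50%), and 3.46% of all genes with windows of that length. The 4 such genes with the smallest p follow, 5′ to 3′ on the gene's strand from RefSeq on GRCm38.p6, with the matches in capitals; the last base is the one before the annotated start. Ifit3 has 2 matches and Isg15 has 3 that overlap.
Ifit3, chr19:34583279-34583528, plus strand: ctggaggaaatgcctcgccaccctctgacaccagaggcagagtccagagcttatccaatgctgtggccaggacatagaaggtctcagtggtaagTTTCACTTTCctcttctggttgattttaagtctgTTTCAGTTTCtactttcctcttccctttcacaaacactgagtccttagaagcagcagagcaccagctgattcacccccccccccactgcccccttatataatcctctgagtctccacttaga
Rsad2, chr12:26456453-26456702, minus strand: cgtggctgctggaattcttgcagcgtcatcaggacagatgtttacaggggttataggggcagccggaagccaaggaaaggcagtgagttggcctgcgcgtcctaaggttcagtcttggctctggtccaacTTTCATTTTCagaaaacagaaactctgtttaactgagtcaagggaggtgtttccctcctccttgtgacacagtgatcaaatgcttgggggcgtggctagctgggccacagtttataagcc
Oas3, chr5:120777660-120777909, minus strand: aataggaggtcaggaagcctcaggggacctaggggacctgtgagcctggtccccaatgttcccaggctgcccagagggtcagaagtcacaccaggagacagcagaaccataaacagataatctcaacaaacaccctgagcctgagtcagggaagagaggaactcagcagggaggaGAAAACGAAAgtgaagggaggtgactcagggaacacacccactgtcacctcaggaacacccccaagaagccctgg
Isg15, chr4:156200819-156201068, minus strand: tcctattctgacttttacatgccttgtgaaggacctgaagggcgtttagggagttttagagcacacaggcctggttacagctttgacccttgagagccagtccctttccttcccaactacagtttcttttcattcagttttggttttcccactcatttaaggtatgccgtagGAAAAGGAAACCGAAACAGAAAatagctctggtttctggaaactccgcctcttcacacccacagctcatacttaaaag

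Of 18 antigen presentation genes, 6 were called higher and none lower (median 0.59). B2m, the shared subunit of class I molecules, stood at 85.8, 164, 26.5 and 26.4 CPM and 134, 652, 56.4 and 132 CPM (log2 change 1.58, SE 0.33, adjusted p = 0.00971). Nlrc5, the factor that activates class I genes, went from 0.155, 0.548, 0 and 0.107 to 0.307, 19.2, 0.675 and 2.81 CPM (log2 change 4.42, SE 0.85, adjusted p = 0.00654). The other calls were Psmb9, H2-D1, Tapbp and Tap1. The count was 1 without vehicle replicate 2 or 4-OHT replicate 2, 2 without vehicle replicate 3 or 4-OHT replicate 4, and 3 without vehicle replicate 4.

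Of 22 chemokine and NF-kB genes, 10 rose and 1 fell (median 1.13), against 2.98% and 2.11% of all genes. Csf2, which encodes the growth factor GM-CSF, stood at 0.62, 3.83, 0.656 and 0.394 CPM with vehicle and 6.44, 16.3, 2.44 and 2.15 CPM with 4-OHT (log2 change 2.40, SE 0.38, adjusted p = 0.00189), and was higher in each line. Cxcl1, which attracts neutrophils, went from 6.51, 30.2, 1.93 and 1.72 to 13.9, 43.0, 13.2 and 13.6 CPM (log2 change 1.78, SE 0.33, adjusted p = 0.00508). Lcn2, which sequesters bacterial iron carriers, went from 4.81, 15.1, 0.246 and 1.47 to 23.6, 156, 1.93 and 1.94 CPM (log2 change 2.13, SE 0.53, adjusted p = 0.0267), and the macrophage factor Csf1 from 3.98, 7.58, 3.45 and 2.51 to 9.26, 42.5, 8.04 and 7.92 CPM (log2 change 1.65, SE 0.46, adjusted p = 0.0475). The adhesion molecule Icam1 fell from 22.8, 24.1, 219 and 162 to 20.4, 21.5, 80.3 and 68.9 CPM (log2 change -0.77, SE 0.19, adjusted p = 0.0274), a call lost when any 1 of the replicate 3 or 4 libraries was left out. The members called higher numbered 6 without any one of the replicate 1 or 2 libraries, and 2, 3, 3 and 4 without vehicle replicate 3, 4-OHT replicate 3, vehicle replicate 4 and 4-OHT replicate 4.

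Of 26 lipid synthesis genes, 24 had lower fitted values and 1 was called, Dhcr7 of the last step of cholesterol synthesis, from 83.8, 60.7, 92.4 and 81.0 to 55.2, 43.3, 60.6 and 54.4 CPM (log2 change -0.57, SE 0.15, adjusted p = 0.0345; median -0.32), a call lost when any 1 of the 8 libraries was left out. Of 24 unfolded protein response genes, 23 had lower fitted values and the chaperone genes Manf and Pdia6 fell, Manf from 120.3 ± 23.5 to 86.2 ± 14.1 CPM (adjusted p = 0.0158; median -0.32). This count of 2 was 5 without either replicate 1 library, 0 without either replicate 2 library, 1 when any 1 of the replicate 3 or 4 libraries was left out, and 6 with DESeq2. Of 24 hypoxia and glycolysis genes, 23 had lower fitted values, none was called and 3 had an unadjusted p under 0.05 (median -0.44). DESeq2 called 1 of them lower. In edgeR 15 were called lower without the filter on low counts, and 1 without either replicate 2 library. Over all genes 8426 of 16417 had lower fitted values, and 5.09% were called. In the Foxa1-floxed organoids the median was -0.34 for lipid synthesis, -0.20 for the unfolded protein response and -0.50 for hypoxia and glycolysis. Among 19 iron handling genes, Trf fell, while the ferritin heavy chain Fth1, Lcn2 and the reductase Steap2 rose (median 0.08). Fth1 stood at 1289, 802, 1194 and 1141 CPM and 1576, 1459, 1969 and 1743 CPM (log2 change 0.62, SE 0.12, adjusted p = 0.00579), with no overlap of the groups. Without vehicle replicate 3, 1 iron gene was called higher in place of 3.

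Other genes with the largest or best supported changes lay outside the lists. Among increases, Prom2, a membrane protein of epithelial protrusions, stood at 7.80, 13.7, 6.52 and 6.59 CPM and 43.9, 65.9, 54.8 and 51.6 CPM (log2 change 2.696, SE 0.26, adjusted p = 2.92e-05). Fam167a, a gene of little known function, went from 3.15, 1.85, 4.64 and 4.01 to 33.6, 43.9, 29.9 and 33.1 CPM (log2 change 3.40, SE 0.48, adjusted p = 7.12e-04), and the bile acid transporter Slc10a2 from 13.02, 5.52, 1.48 and 2.12 to 28.9, 38.0, 59.5 and 38.8 CPM (log2 change 3.34, SE 0.56, adjusted p = 0.0026). All 3 had groups that were apart. Cgnl1, a junction protein related to cingulin, rose from 234, 274, 218.5 and 247 to 371, 390.1, 391 and 403 CPM (log2 change 0.68, SE 0.10, adjusted p = 9.73e-04), and Gpr137b, a lysosomal membrane protein, from 38.9, 29.3, 29.9 and 36.5 to 83.6, 67.8, 111.5 and 90.0 CPM (log2 change 1.38, SE 0.17, adjusted p = 3.56e-04). Frmd6, Sipa1l2, Fam171a2, Gdpd5 and Sned1 were the others chosen by p (adjusted p from 1.80e-04 to 7.13e-04, edgeR).

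Among decreases outside the lists, Ldlrad3, a membrane receptor, stood at 45.1, 48.7, 64.7 and 48.4 CPM and 25.7, 14.7, 16.1 and 14.6 CPM (log2 change -1.58, SE 0.17, adjusted p = 8.61e-05). Acsl1, which activates fatty acids, went from 94.1, 91.1, 135 and 109 to 63.6, 43.0, 53.5 and 45.9 CPM (log2 change -1.06, SE 0.13, adjusted p = 3.16e-04), and Txndc5, a protein folding enzyme, from 271, 283.5, 324 and 285 to 169, 146, 189.8 and 167 CPM (log2 change -0.80, SE 0.10, adjusted p = 3.10e-04). Homer2, a scaffold protein, fell from 81.3, 61.4, 68.7 and 93.4 to 43.5, 21.8, 27.8 and 23.1 CPM (log2 change -1.44, SE 0.17, adjusted p = 2.73e-04). In these 4 genes no 4-OHT library reached a vehicle library. Adamts9, a secreted protease, stood at 6.98, 11.6, 122.5 and 119 CPM and 0.665, 3.37, 30.4 and 32.4 CPM (log2 change -2.13, SE 0.26, adjusted p = 3.16e-04), and Flvcr2, a membrane transporter, at 0.982, 1.26, 77.1 and 70.9 and 0.205, 0.405, 9.55 and 8.07 CPM (log2 change -2.77, SE 0.38, adjusted p = 5.41e-04), both with line 1526C far above line 1267B. Stc2, a secreted glycoprotein, fell from 155, 213, 50.2 and 137 to 124, 84.9, 1.86 and 4.16 CPM (log2 change -2.77, SE 0.75, adjusted p = 0.0423). Synpo, Kif5c, Bcas1, Akr1c14, Itln1, Clca1 and the unnamed gene model Gm43085 were also among the leading decreases.

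Promoters of genes that fell were searched for the forkhead core word TGTTTAC (or GTAAACA). It lay within 250 bases before the start of 11 of 267 genes called lower with a window (4.12%), 10 of 352 called higher (2.84%) and 298 of 10570 not called (2.82%). None of the 8 genes with a window among the 12 largest decreases held it. Members of the lists that fell and held it were Rbp4 and Etv5, shown as above from RefSeq on GRCm38.p6. A match of letters is a description and says nothing of binding.
Rbp4, chr19:38125322-38125571, minus strand: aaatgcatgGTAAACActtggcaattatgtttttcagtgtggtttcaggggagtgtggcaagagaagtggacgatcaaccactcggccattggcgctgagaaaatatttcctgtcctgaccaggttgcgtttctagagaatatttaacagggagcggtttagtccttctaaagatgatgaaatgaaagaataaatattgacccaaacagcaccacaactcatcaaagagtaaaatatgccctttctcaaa
Etv5, chr16:22439571-22439820, minus strand: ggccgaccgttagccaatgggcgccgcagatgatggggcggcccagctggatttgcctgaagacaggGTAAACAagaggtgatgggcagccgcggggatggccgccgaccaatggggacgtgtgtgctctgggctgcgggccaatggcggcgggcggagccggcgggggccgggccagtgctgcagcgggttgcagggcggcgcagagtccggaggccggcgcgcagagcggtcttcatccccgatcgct

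The size of the effect differed between lines for 72 genes (0.439% of those tested; 41 higher and 31 lower in line 1526C relative to line 1267B). For 44 of the 72 the effects had opposite signs, and 23 were also called over both lines. Car4, a membrane carbonic anhydrase, stood at 0.93, 0.295, 474 and 416 CPM with vehicle and 22.7, 25.0, 112 and 146 CPM with 4-OHT, so it was higher with 4-OHT in line 1267B and lower in line 1526C (log2 change 5.35 in line 1267B and -1.78 in line 1526C; adjusted p = 0.0223 for the difference). Cftr, the chloride channel mutated in cystic fibrosis, did the reverse, at 45.7, 31.9, 26.5 and 25.6 CPM and 1.84, 2.52, 44.3 and 58.0 CPM (log2 change -4.11 in line 1267B and 0.97 in line 1526C; adjusted p = 0.0223).

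Wnt7b, a Wnt ligand of lung epithelium, was already high in line 1267B and low in line 1526C, at 88.5, 114, 1.85 and 3.51 CPM with vehicle and 116, 197, 56.0 and 61.5 CPM with 4-OHT (log2 change 0.59 in line 1267B and 4.44 in line 1526C; adjusted p = 0.0223). The netrin receptor Unc5b had the same layout, at 95.8, 65.6, 7.71 and 14.01 and 83.1, 62.1, 99.0 and 81.6 CPM (log2 change -0.14 in line 1267B and 3.05 in line 1526C; adjusted p = 0.0223). Serpinh1, a collagen chaperone, stood at 11.01, 18.6, 389 and 347 CPM and 16.9, 49.4, 156 and 155 CPM (log2 change 1.03 in line 1267B and -1.24 in line 1526C; adjusted p = 0.0223). Without vehicle replicate 4 the line difference gave 37 calls in edgeR, without 4-OHT replicate 4 it gave 1, and without any other library, or both replicate 2 libraries, it gave 0, against 1430 genes with an unadjusted p under 0.05 over all 8 libraries.

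**Figure D5:**
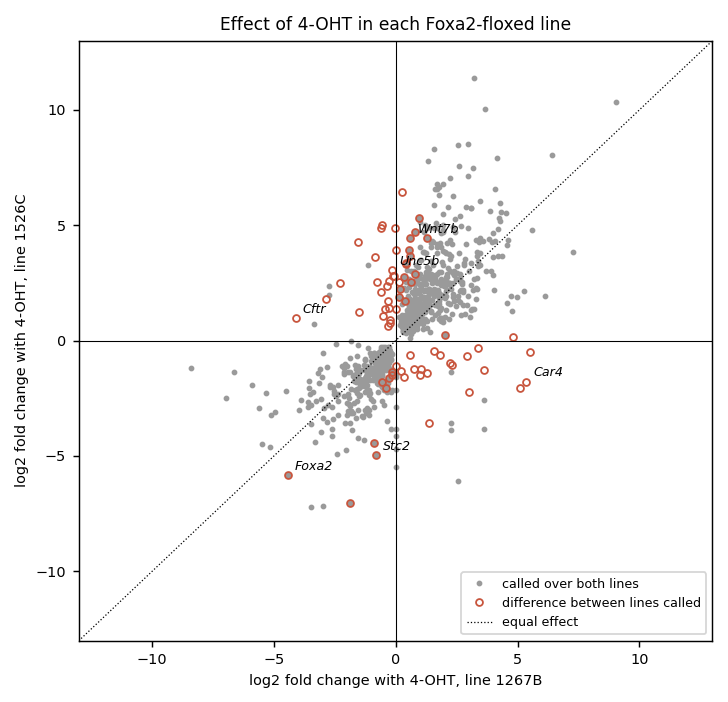
Fitted log2 change with 4-OHT in line 1267B (horizontal) against line 1526C (vertical) for genes called over both lines (grey) and genes whose difference between lines was called (red circles); the dotted line marks equal effects. Most grey points lie in the lower left and upper right quadrants, with Foxa2 below the line of equal effects, while Car4 and Cftr lie in the quadrants of opposite sign.

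Losing Foxa2 was set beside losing Foxa1. In the Foxa1-floxed organoids 10 of the same 16417 genes were called (0.0609%), and the genes called after Foxa2 loss had median changes there of 0.41 (higher genes) and -0.21 (lower genes). The fitted change there had the same sign for 404 of the 489 higher genes and 264 of the 346 lower genes. The share with the same sign over all genes was not counted, so these numbers do not show that the losses act alike. Among the called genes, Csf1r changed by 2.33 after either loss, and Peg3 by -1.67 after Foxa2 loss and -1.41 after Foxa1 loss. Neither was called in the Foxa1-floxed organoids. Foxa1 itself fell in those organoids by 1.92 on the log2 scale. The difference between the effects, tested on counts summed per line so that each tumour is 1 unit, gave 0 calls by edgeR among 18384 genes (1071 with an unadjusted p under 0.05), while DESeq2 called 145. Itih2, with changes of -4.75 after Foxa2 loss and -0.13 after Foxa1 loss, did not pass (adjusted p = 0.238), nor did Ldlrad3 (-1.58 and -0.14, adjusted p = 0.341) or Ptprh, a receptor phosphatase (2.41 and -0.028, adjusted p = 0.341). Foxa2 itself had changes of -5.12 and 0.13 (adjusted p = 0.125). A p that misses the threshold does not show that the effects are equal, with 2 tumours against 3.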

How the data were processed

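RNA sequencing libraries were analysed as the whole-number counts per gene that the authors deposited; per the submitters' processing notes STAR 2.7.6a, featureCounts 1.5.1, DESeq2 and the genome build GRCm38 were used, with no roles given. No source used here gives the strand setting, the handling of multiply mapped reads or the annotation release. Counts were filtered with filterByExpr, scaled by TMM and tested with edgeR 4.0.16 (R 4.3.3) quasi-likelihood F tests over both single-floxed genotypes, with a block of line and run and Benjamini-Hochberg adjustment at 0.05. The difference between lines used the same fit, and that between genotypes used counts summed per line. The pairing comes from the labels, since both treatments share tumour lines; deviations of libraries correlated at 0.52 to 0.84 within line 1267B and 0.76 to 0.84 within line 1526C. P-values treat libraries as units although there are 2 tumours.

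Genes named were the Foxa genes and Nkx2-1; the 12 per direction with the largest change, the 12 with the smallest p and the 8 with the largest change in CPM among called genes with a mean log2 CPM of at least 2 and 1 sign in every block; up to 4 called members per list (2 in the other direction); and leading genes of both difference tests. Uncalled list members were added to show levels. The members and lists were chosen with earlier results of these data known. The fixed rule gave no promoter to print, so those shown were chosen after the data were seen. Some items are not reported here. Scripts were tested on simulated data. Alternatives were RLE scaling, DESeq2 1.42.0, no filter, a minimum log2 change of 1, other blocks, summed counts, and leaving out libraries or lines.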

Additional observations from a re-analysis of the deposited data

Results flagged for a closer look

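Of 248 groups of 4 libraries examined for named genes, 42 had 1 library set apart from the rest. The rule would flag about 1 in 20 groups of 4 independent values from 1 normal distribution. Each group here joins 2 libraries of each of 2 lines, so the 42 cannot be read against that rate. Most of the libraries set apart were replicate 2 of line 1267B, from run 17992. With vehicle, replicate 2 was the high library for interferon response genes Ifih1 (51.6 CPM), Ifit3 (18.5), Irf7 (47.8), Oas3 (21.1), Oasl2 (41.1), Rsad2 (5.18), Usp18 (13.2) and Xaf1 (73.7), and for the immunoproteasome gene Psmb9 (3.54 CPM). It was also the high library for Csf2 (3.83 CPM), Cxcl1 (30.2), Il1a (22.2), Ltf (131), Muc2 (87.8), Apob (32.2), Capn8 (12.5), Col11a2 (43.7), Krt84 (7.75) and Ankrd1 (74.9), and the low library for Lamc1 (379 CPM).

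With 4-OHT, replicate 2 was again the high library for Ifit3 (384 CPM), Irf7 (327), Oas3 (295), Oasl2 (440), Rsad2 (82.3), Usp18 (110), Xaf1 (298), Psmb9 (12.9), Nlrc5 (19.2), B2m (652) and the large ubiquitin ligase Rnf213 (1547 CPM). The same library was high for Cxcl1 (43 CPM), Lcn2 (156), Ltf (295), Muc2 (13.8), Clca1 (37.4), Col6a1 (3.52) and Flt1 (118). Replicate 1 was the high library for Bpifb1 with vehicle (45.2 CPM) and for Ldlrad3 (25.7), Ly6g (77.3) and Manf (107) with 4-OHT.

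The effect of 4-OHT differed between lines, tested as an interaction in edgeR, for 21 named genes. As log2 effect in line 1526C minus that in line 1267B, the differences above 0 were Atp10d 1.62, Atrn 1.02, Cftr 5.08, Cx3cl1 2.07, Cxcl1 2.08, Serpinb2 3.11, Serpinb9b 3.16, Ttyh2 1.77, Unc5b 3.19 and Wnt7b 3.85. Those below 0 were Basp1 -1.98, Car4 -7.14, Dennd3 -1.65, Fam234b -3.35, Fermt2 -2.67, Foxa2 -1.40, Icam1 -1.19, Lgmn -1.21, Serpinh1 -2.27, Soga1 -3.18 and Stc2 -4.14. Line and run cannot be told apart in these differences.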

How the results depend on the processing

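Of 16417 genes tested, 835 were called, and the replicate block of line and run carried this count. Without it 5 genes were called (3 higher, 2 lower), all among the 835; with line as the only block 559 were called, 303 of them higher. No filter on low counts gave 2028 calls (1177 higher, 851 lower), DESeq2 gave 1236 (532 lower), and a minimum log2 change of 1 gave 88 (52 higher, 36 lower). The 8 Foxa2-floxed libraries alone gave 487 (266 higher, 221 lower), counts summed per line 73 (43 higher, 30 lower), and line 1267B alone, without line 1526C, 82 (39 higher, 43 lower). Leaving out 1 library gave 399 to 844 calls, 220 to 521 higher and 157 to 323 lower. RLE scaling shared 828 of its 829 calls with the 835. Leaving out both replicate 2 libraries, an alternative chosen after seeing the data, gave 664, of which 540 were shared.

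For the difference between lines (72 calls, 41 higher, 31 lower), DESeq2 gave 261 (169 higher, 92 lower), no filter 692 (422 higher, 270 lower), line as the only block 11 (8 higher, 3 lower) and the Foxa2-floxed libraries alone 78 (19 lower). Leaving out 1 library gave 0 to 37 (0 to 21 higher, 0 to 16 lower), and leaving out both replicate 2 libraries gave 0 (0 higher, 0 lower), with edgeR in each case; 1430 genes had an unadjusted p under 0.05 in the full set. For the difference from Foxa1 loss (0 calls by edgeR), DESeq2 gave 145 (68 higher, 77 lower), no filter 58 (21 higher, 37 lower), single libraries with the replicate block 60 (19 higher, 41 lower), and leaving out line 1267B 5 (1 higher, 4 lower). The change of Alb was 2.55 without line 1526C (adjusted p = 1, edgeR), where Alb has almost no counts. Except where fewer samples or genes entered, the cause of these shifts was not tested. Genes under about 1 CPM rest on few counts.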

Other observations

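The genes here were chosen after their values were seen, and the edgeR calls are those of the report. Some genes known from mucus-secreting intestinal goblet cells were picked because they fell, and others did not pass: Tff3 and Spink4 had log2 changes of -2.10 and -0.86 (adjusted p = 0.0552 and 0.719), with Spink4 at 1.81 in line 1526C. Atoh1, the factor that specifies secretory cells, stood at 14.4, 19.6, 0.287 and 0.251 CPM with vehicle and 1.94, 2.15, 0.0643 and 0.11 CPM with 4-OHT (log2 change -2.72, SE 0.49, adjusted p = 0.00699). Zg16, a lectin of mucus granules, went from 3.82, 21.9, 15.6 and 68.0 to 1.07, 10.8, 4.63 and 3.83 CPM (log2 change -2.40, SE 0.54, adjusted p = 0.0171), and Itln1, a secreted lectin, from 35.7, 30.5, 2.87 and 10.2 to 10.2, 3.90, 0.708 and 0.694 CPM (log2 change -2.70, SE 0.42, adjusted p = 0.00152). Clca1 and Galnt5, which starts O-linked sugar chains, had log2 changes of -2.72 and -2.74 (adjusted p = 0.0393 and 7.12e-04). Some genes known from absorptive enterocytes and bile acid handling were picked because they rose. The bile acid receptor Nr1h4 stood at 0, 0.169, 0.41 and 0.215 CPM and 0.307, 2.899, 4.89 and 3.03 CPM (log2 change 3.83, SE 0.49, adjusted p = 4.14e-04), and Slc51a, which exports bile acids, at 0, 0.0843, 1.31 and 1.54 and 0.153, 0.873, 12.3 and 15.4 CPM (log2 change 3.31, SE 0.45, adjusted p = 5.31e-04). The retinol binding protein Rbp2 went from 58.2, 118, 31.0 and 31.6 to 237, 145, 162 and 205 CPM (log2 change 1.88, SE 0.42, adjusted p = 0.0155), and the amino acid transporter Slc6a19 from 1.71, 3.16, 0.615 and 0.681 to 6.39, 9.23, 4.47 and 5.29 CPM (log2 change 2.27, SE 0.41, adjusted p = 0.00432).

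The Notch ligand Dll1 rose from 0.569, 1.64, 1.07 and 1.40 to 8.80, 12.97, 12.99 and 14.3 CPM with no overlap of the groups (log2 change 3.43, SE 0.48, adjusted p = 6.79e-04), and the urokinase gene Plau from 51.2, 47.9, 56.1 and 57.0 to 106, 122, 155.5 and 219 CPM, also with no overlap (log2 change 1.47, SE 0.22, adjusted p = 0.00115). Among uroplakins, membrane plaque proteins of the bladder lining, Upk1a rose from 11.5, 78.8, 11.2 and 10.6 to 22.1, 298, 24.3 and 27.7 CPM (log2 change 1.35, SE 0.24, adjusted p = 0.00426) and Upk3b from 0.258, 0.211, 0.246 and 0.107 to 1.58, 3.37, 1.25 and 1.06 CPM (log2 change 3.04, SE 0.42, adjusted p = 6.79e-04) while Upk1b fell from 265, 210.3, 40.2 and 61.2 to 159.6, 36.1, 4.99 and 4.97 CPM (log2 change -2.49, SE 0.39, adjusted p = 0.00175). The imprinted genes Peg3, Usp29 and Zim1 fell, and their transcripts came almost wholly from line 1526C. Peg3 stood there at 829 and 979.6 CPM with vehicle and 437 and 360.0 CPM with 4-OHT (adjusted p = 0.035). Other imprinted genes rose, with log2 changes of 2.33 for H19, 2.92 for Mest and 2.81 for Dio3 (adjusted p = 0.0421, 0.0283 and 0.0026). H19 (0, 0, 1.80 and 2.65 to 0.0511, 0.0312, 5.24 and 16.8 CPM) and Mest (0.0517, 0.0421, 0.697 and 0.358 to 0, 0.0312, 4.76 and 5.41 CPM) had almost no counts in line 1267B. Dio3 was higher in both lines, from 0, 0.211, 0.533 and 1.22 to 0.767, 4.80, 3.02 and 3.83 CPM.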
